A study of Mus musculus with 26 samples.

Results

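The comparison set the 5 spleen libraries coded MN against the 6 coded OS, 11 of the 26 libraries of the series, which were chosen by these codes alone. Both codes came from female BALB/c mice aged 8 weeks that received ovalbumin (OVA, the main protein of egg white, which serves as the allergen) at 0.05 mg per day into the peritoneum on days 1, 3 and 5. The MN mice also received a miR-676-3P mimic, 7 mg per kg into the tail vein on day 3, directly after the second OVA injection. The labels give 20 mice per group, do not define the letters of the codes, and leave unsaid whether libraries stand for separate mice, so p-values measure only the spread between these libraries, which may be technical. A second code of each treatment exists in the series, ON for OVA and MM for OVA with the mimic, and CT is saline. Spleens were taken at a time not given in the sources used here, and no group given a control mimic was analysed here. The question is what differed in the spleen between OVA-treated mice with and without the mimic, within these codes.

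A microRNA mimic is a synthetic double-stranded RNA, one strand of which is loaded into Argonaute proteins like the natural microRNA. The loaded strand recognises messenger RNAs mainly through its seed, bases 2 to 8, which pairs with matching sites in 3′ untranslated regions and usually lowers the level of the messenger. The spleen filters blood in its red pulp and holds B cells, T cells and antigen-presenting cells in its white pulp. Immediate early genes, which recur below, are transcribed within minutes of a stimulus or of physical stress, without new protein synthesis, and their messengers decay quickly. The mature sequence is printed because it defines the agent that separates the treatments, with the seed in capitals (RefSeq, GRCm38.p6, chromosome X, 100381151 to 100381171, + strand).
mmu-miR-676-3p: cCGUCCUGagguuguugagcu
It was the 1 mature microRNA in the RefSeq table with this seed. The deposited table lists the precursor gene Mir676 at 0 in all 11 libraries. Poly(A)-selected libraries do not capture a mature microRNA or a short mimic, so this value does not check delivery. Eda, the gene that Mir676 lies within, had 0.274 ± 0.106 FPKM in OS (SD, n = 6) and 0.274 ± 0.0775 in MN (SD, n = 5).

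Expression was read as FPKM, a measure of fragments for the length of the gene and the size of the library, and compared as log2(FPKM + 1). The libraries held 14302533 to 16960619 reads recovered from the FPKM steps, and 1 read on 1 kilobase was worth an FPKM of 0.0544 to 0.0728. Reads from molecules copied by PCR are not told apart, so this precision covers counting error only. Of 15672 genes tested with limma, 502 (3.20%) passed at an adjusted p under 0.05, 263 (1.68%) higher and 239 (1.53%) lower in MN. Among these, 60 of the rises and 65 of the falls were at least 2-fold on this scale. In 413 of the called genes the 5 MN libraries did not overlap the 6 OS libraries, while over all genes tested 880 (5.62%) did not overlap, 477 (3.04%) of them higher and 403 (2.57%) lower. An unadjusted p under 0.05 was reached by 3190 genes (20.4%), and voom on the recovered reads called 545. The count was 308 without OS 2, 1076 without OS 5, 294 without OS 6, and 169, 122, 134, 209 and 169 without MN 1, 2, 3, 4 and 5. Scaling to the recovered read totals called 380 genes higher and 195 lower, which raised the higher share from 52.4% to 66.1%.

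**Figure D1:**
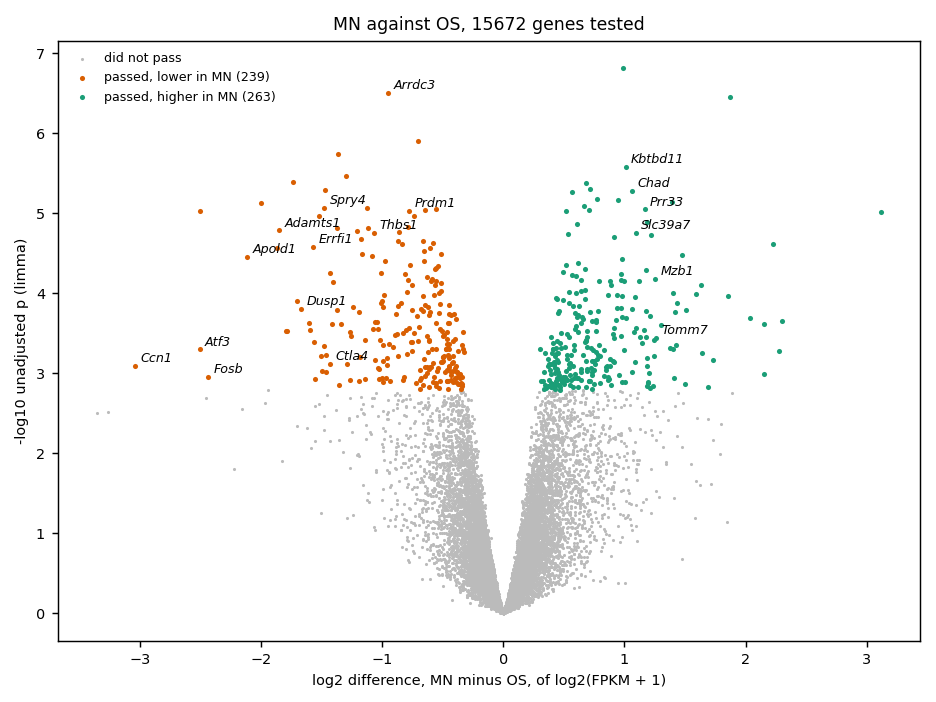
Log2 difference (x axis, MN minus OS, of log2(FPKM + 1)) against the −log10 of the unadjusted limma p (y axis) for the 15672 genes tested, with 239 genes that passed lower in MN in orange and 263 that passed higher in green. Ccn1 lies furthest left of the labelled genes at -3.04, and Arrdc3 at -0.95 lies highest of the labelled falls.

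The OS libraries were more unlike each other than the MN libraries. The SD of log2(FPKM + 1) was larger in OS for 87.4% of genes, with a median of 0.28 in OS and 0.13 in MN. The first principal component, 27.8% of the variance, ran from OS 5 at -54.9 to OS 4 at 36.9, while the MN libraries lay between -7.17 and 1.34. The second, 23.5%, held the MN libraries between 19.1 and 25.5 and the OS libraries between -27.2 and -4.48. OS 5 therefore stands apart. Among the 124 genes looked at singly, it lay within the MN range in 12 of the 44 that fell (Atf3, Fosb, Ccrl2, Ptgs2, Dusp1, Dusp5, Gem, Nfil3, Hdc, Rhob, Adm and Tgfb1i1), in 20 of 33 that were lower and did not pass, and in 0 of 32 that rose. Markers of the labelled tissue were present in both codes. The B-cell receptor component Cd79a had 294 ± 135 FPKM in OS and 343 ± 30.0 in MN, Cd4 had 20.0 ± 4.78 and 26.3 ± 1.73, and the macrophage complement gene C1qa had 216 ± 82.1 and 343 ± 32.9. Of 18 genes of the adjoining pancreas, 2 reached the level for testing.

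For every gene list, the shares over all genes tested were 1.53% lower and 1.68% higher. Of the gene lists, immediate early genes held the most falls. Of 29 tested, 10 fell, 0 rose and 19 did not pass, where 1.53% of all genes fell, and all 29 had a log2 difference below 0. Their median was -1.24, against 0.00 over all genes tested. Those that fell were Ccn1, Atf3, Fosb, Dusp1, Dusp5, Gem, Nr4a3, Nr4a2, Rhob and Klf6. The list mean, on the log2 scale from the OS mean, was -0.07, 0.58, 0.62, 0.54, -1.62 and -0.05 in OS 1 to 6, and -1.17, -1.81, -1.10, -1.08 and -1.54 in MN 1 to 5. So 5 OS libraries lay above every MN library and OS 5 lay within the MN range.

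Several of these genes encode transcription factors of the AP-1 family and its partners. Atf3, a stress-induced transcription factor (ENSMUSG00000026628, chromosome 1, 190902493 to 190950236, - strand in the table's coordinates, whose build is not named), had FPKM of 2.76 (lowest), 25.9 (median) and 51.1 (highest) in OS. The 5 MN libraries had 2.53, 1.76, 3.39, 3.84 and 2.11. OS 5 was the lowest OS library and lay within the MN range, and the others were all higher. The means were 25.7 ± 16.4 in OS (SD, n = 6) and 2.72 ± 0.871 in MN (SD, n = 5), a log2 difference of -2.51 ± 0.53 (SE, limma adjusted p = 0.0292). Fosb, an AP-1 subunit, fell by 2.44 ± 0.57 on the log2 scale (adjusted p = 0.0430), from 11.1 ± 7.02 to 0.751 ± 0.486 FPKM. OS 5 was at 0.424 FPKM, within the MN range. Its relatives Fos and Jun missed the threshold, with OS 5 within the MN range for both. Fos had 99.2 ± 54.6 FPKM in OS and 17.4 ± 9.83 in MN (log2 difference -2.45 ± 0.63, adjusted p = 0.0556), and Jun had 69.9 ± 43.6 and 13.9 ± 2.35 (-1.94 ± 0.48, adjusted p = 0.05001). The proto-oncogene Myc, with a log2 difference of -1.07 ± 0.27, did not pass either (adjusted p = 0.0556), and its OS 5 value of 30.8 FPKM lay within the MN range.

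The orphan nuclear receptors of the Nr4a family, which are induced by antigen receptor and cyclic AMP signalling, behaved alike in sign. Nr4a3 had FPKM of 2.97 (lowest), 8.50 (median) and 15.1 (highest) in OS and 2.36, 1.25, 2.59, 2.23 and 1.12 in MN, without overlap. It fell by 1.51 ± 0.33 on the log2 scale (adjusted p = 0.0325), and Nr4a2 fell by 1.37 ± 0.25 (adjusted p = 0.0183). Nr4a1, the most abundant of these in FPKM, had 100.05 ± 53.4 in OS and 21.5 ± 8.79 in MN, a log2 difference of -1.97 ± 0.51 that did not pass (adjusted p = 0.0589), with OS 5 at 16.2, within the MN range.

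Dusp1 and Dusp5, phosphatases of mitogen-activated protein kinases, and Spry4 and Errfi1, which lie outside the immediate early list, fell. Dusp1, a phosphatase that switches off p38 and JNK kinases (ENSMUSG00000024190, chromosome 17, 26724564 to 26781102, - strand), had FPKM of 63.4 (lowest), 161 (median) and 213 (highest) in OS. In MN it had 55.9, 24.7, 63.5, 46.3 and 45.5. OS 5 again lay within the MN range, and the log2 difference was -1.67 ± 0.31 (adjusted p = 0.0183). Dusp5, which acts on ERK in the nucleus, averaged 31.9 ± 13.5 FPKM in OS and 9.28 ± 2.96 in MN, with OS 5 at 12.4, within the MN range (log2 difference -1.60 ± 0.31, adjusted p = 0.0210). Spry4, an inhibitor of receptor tyrosine kinase signalling, had 2.96 (lowest), 5.54 (median) and 6.31 (highest) in OS and 1.94, 0.864, 1.96, 1.10 and 0.515 in MN, without overlap (log2 difference -1.48 ± 0.20, adjusted p = 0.00540). Errfi1, which damps EGF receptor signalling (ENSMUSG00000028967, chromosome 4, 150938376 to 150953349, + strand), had 65.1 (lowest), 119.8 (median) and 158 (highest) in OS and 37.7, 31.9, 44.9, 36.5 and 24.9 in MN. All 6 OS libraries lay above all 5 MN libraries, OS 5 included, and the log2 difference was -1.57 ± 0.24 (adjusted p = 0.00824). Gem, a small GTPase, Rhob, an endosomal GTPase, and Klf6, a zinc-finger transcription factor, fell by 1.56, 1.19 and 0.90 on the log2 scale.

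The calls of Errfi1 and Spry4 held in all 24 alternative settings, and those of the immediate early genes did not. Without 1 library, the call of Ccn1 ended in 8 of 11 fits, that of Atf3 in 8, Fosb in 10, Nr4a3 in 7, and Gem and Klf6 in 6. The calls of Dusp5 and Rhob ended in 3, that of Nr4a2 in 2 (without MN 2 or MN 5) and that of Dusp1 in 1 (without MN 2). In these fits the adjusted p rose as high as 0.0912 for Ccn1, 0.0807 for Atf3 and 0.110 for Fosb.

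**Figure D2:**
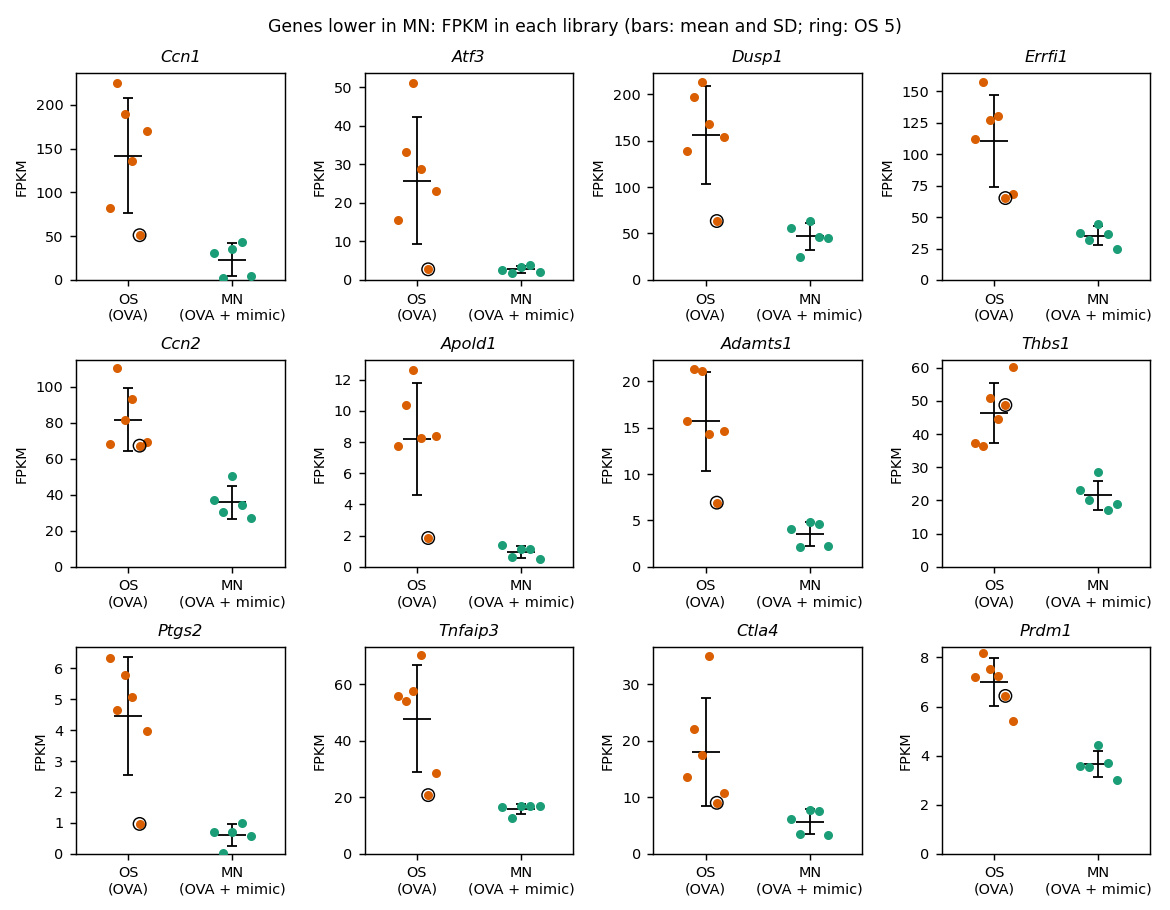
FPKM (y axis, each from 0) of 12 genes that fell, 1 point per library, with OS in orange, MN in green, the mean and SD as black bars, and OS 5 ringed. OS 5 lies at the level of the MN libraries for Atf3 (2.76), while for Ccn2, Thbs1 and Prdm1 it lies among the other OS libraries.

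Genes linked to TGF-beta and the matricellular proteins, secreted proteins that bind matrix and tune cell adhesion, showed the same direction. Of 19 tested, 5 fell, 0 rose and 14 did not pass, where 1.53% of all genes fell. Of the 19, 17 lay below 0, with a median log2 difference of -0.31. The list means of all 6 OS libraries, -0.35 to 0.17 from the OS mean, lay above those of all 5 MN libraries, -0.80 to -0.39, and OS 5 was the lowest of the OS libraries. Ccn1, which is also an immediate early gene (ENSMUSG00000028195, chromosome 3, 145352731 to 145355736, - strand), had FPKM of 51.1 (lowest), 153 (median) and 225 (highest) in OS and 31.3, 2.52, 34.8, 43.3 and 4.04 in MN. The groups did not overlap, although MN 2 and MN 5 were far below the other MN libraries. The log2 difference was -3.04 ± 0.69 (adjusted p = 0.0371). Ccn2, or connective tissue growth factor (ENSMUSG00000019997, chromosome 10, 24471340 to 24474581, + strand), had 67.3 (lowest), 75.4 (median) and 111 (highest) in OS and 37.4, 30.2, 50.2, 34.0 and 27.1 in MN. OS 5 was level with OS 1 and OS 6 here, and Ccn2 fell by 1.18 ± 0.18 on the log2 scale (adjusted p = 0.00753). Thbs1, thrombospondin of platelets and matrix (ENSMUSG00000040152, chromosome 2, 117942357 to 117957614, + strand), had 36.5 (lowest), 46.6 (median) and 60.1 (highest) in OS and 23.1, 20.1, 28.5, 17.0 and 19.0 in MN. Its OS 5 value of 48.8 was above 3 other OS libraries, and the log2 difference was -1.07 ± 0.16 (adjusted p = 0.00688). Tgfb1i1, a focal adhesion scaffold, fell by 0.80 ± 0.16, and Smad3, which carries the TGF-beta signal to the nucleus, had a log2 difference of -0.27 ± 0.07 that did not pass (adjusted p = 0.0570). The calls of Ccn2 and Thbs1 held in all 24 alternatives, and that of Tgfb1i1 ended without MN 1, MN 2, MN 4 or MN 5 (adjusted p up to 0.0667).

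Apold1 and Adamts1, in none of the lists, fell as well. Apold1, an endothelial early-response gene, had 1.85 (lowest), 8.31 (median) and 12.7 (highest) in OS and 1.43, 0.622, 1.13, 1.13 and 0.490 in MN. It did not overlap between codes and fell by 2.11 ± 0.33 on the log2 scale (adjusted p = 0.00949). Adamts1, a secreted metalloproteinase, had 6.92 (lowest), 15.2 (median) and 21.3 (highest) in OS and 4.08, 2.13, 4.81, 4.59 and 2.20 in MN, again without overlap, and fell by 1.85 ± 0.27 (adjusted p = 0.00688). Both calls held in all 24 alternatives. Of 15 megakaryocyte and platelet genes, 2 fell, Thbs1 among them, and 13 did not pass, where 1.53% of all genes fell. All 15 lay below 0, with a median of -0.38. Ppbp, a platelet chemokine, had 381 ± 116 and 258 ± 48.7 FPKM (log2 difference -0.52 ± 0.23, adjusted p = 0.221), and Pf4 had 212 ± 82.1 and 174 ± 25.1. In bulk spleen, fewer cells of a type and less RNA per cell cannot be told apart, here and in every list below.

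Inflammatory cytokines and chemokines were mostly lower in MN but seldom passed. Of 16 tested, 1 fell, 0 rose and 15 did not pass, while 14 lay below 0 and the median was -0.88. The one that fell was Ptgs2, the inducible cyclooxygenase of prostaglandin synthesis. It had FPKM of 0.963 (lowest), 4.87 (median) and 6.34 (highest) in OS and 0.696, 0.0142, 0.701, 0.986 and 0.560 in MN, with OS 5 within the MN range (log2 difference -1.70 ± 0.31, adjusted p = 0.0167). The call ended without MN 2 (adjusted p = 0.0523). The neutrophil chemokine Cxcl2 had 1.48 (lowest), 38.5 (median) and 46.9 (highest) in OS and 5.55, 0.0631, 6.08, 3.13 and 6.82 in MN. OS 5 lay within the MN range and MN 2 was close to 0, and the difference of -2.22 ± 0.79 did not pass (adjusted p = 0.139). Ccl3, Ccl4 and Il1b had log2 differences of -1.46 ± 0.37, -1.48 ± 0.41 and -0.98 ± 0.30 and did not pass (adjusted p = 0.0535, 0.0683 and 0.0931), with OS 5 within the MN range for each.

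Among 15 NF-kappaB subunits and feedback inhibitors, 1 fell and 14 did not pass, with a median of -0.24, or -0.14 without OS 4. Tnfaip3, or A20, a ubiquitin-editing enzyme that limits NF-kappaB signalling (ENSMUSG00000019850, chromosome 10, 18876658 to 18891405, - strand), had 20.8 (lowest), 54.99 (median) and 70.4 (highest) in OS and 16.4, 12.8, 16.9, 16.8 and 17.0 in MN. The groups did not overlap, and the log2 difference was -1.42 ± 0.28 (adjusted p = 0.0212), a call that ended without MN 1, MN 2, MN 3 or MN 5 (adjusted p up to 0.0663). The subunit Rel had 32.1 ± 12.6 and 16.5 ± 0.948 FPKM and Nfkbiz had 27.9 ± 10.6 and 11.9 ± 2.86, and neither passed (adjusted p = 0.0578 and 0.0598). OS 5 lay within the MN range for Nfkbiz and above it for Rel. Ccrl2, a chemerin-binding receptor, fell by 1.79 ± 0.36 (adjusted p = 0.0238), with OS 5 within the MN range, and Cd83, a surface marker of activated dendritic and B cells, fell by 1.49 ± 0.34 (adjusted p = 0.0394). Cd83 had 58.5 (lowest), 181 (median) and 291 (highest) in OS and 54.95, 46.0, 51.9, 51.8 and 53.4 in MN, so that OS 5 at 58.5 lay just above the highest MN library. Both calls ended without any 1 of the 5 MN libraries, and that of Cd83 also without OS 1, OS 2 or OS 3 (adjusted p up to 0.102). Ccr7, the receptor that guides dendritic and T cells to lymphoid zones, had 125 ± 55.1 and 49.8 ± 7.83 and did not pass (adjusted p = 0.0628), with OS 5 at 45.9, within the MN range.

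Genes of lymphocyte activation and its restraint followed. Of 14 genes of regulatory T cells and co-inhibition, Ctla4 and Gpr171 fell and 12 did not pass, where 1.53% of all genes fell. The median was -0.20, or -0.07 without OS 4 and -0.31 without OS 6. Ctla4, an inhibitory receptor that competes with CD28 for its ligands (ENSMUSG00000026011, chromosome 1, 60926159 to 60954991, + strand), had 9.01 (lowest), 15.5 (median) and 35.1 (highest) in OS and 6.22, 3.50, 7.76, 7.61 and 3.38 in MN. There was no overlap, and the log2 difference was -1.43 ± 0.32 (adjusted p = 0.0360). Gpr171, a G protein-coupled receptor of T cells, had 25.5 (lowest), 40.5 (median) and 84.2 (highest) in OS and 19.5, 13.9, 20.2, 19.1 and 11.03 in MN (log2 difference -1.34 ± 0.26, adjusted p = 0.0212). The call of Gpr171 ended without MN 2 or MN 5 (adjusted p up to 0.0656), and that of Ctla4 in 7 of 11 fits without 1 library (adjusted p up to 0.10). OS 4, the highest OS library for both, also had the highest list mean of 18 T-cell lineage genes, 0.69 against -0.30 to -0.02 in the other OS libraries, and the part of T-cell number in both calls was not tested. Il10, which encodes an anti-inflammatory cytokine, had 0.853 (lowest), 11.8 (median) and 23.0 (highest) in OS and 0.664, 0.598, 1.91, 1.16 and 0.934 in MN, and did not pass, OS 5 being the lowest OS library and within the MN range (log2 difference -2.16 ± 0.58, adjusted p = 0.0628). Lrrc32, which holds latent TGF-beta on regulatory T cells, did not pass either (-0.46 ± 0.13, adjusted p = 0.0695).

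Of 13 plasma cell genes, 1 rose, 2 fell and 10 did not pass, where 1.68% of all genes rose and 1.53% fell. The median was 0.06 (0.03 to 0.13 when each library was left out, moving over 1.5 times without OS 2, OS 5, MN 1, MN 4 or MN 5). Prdm1, which encodes Blimp-1, a transcription factor that drives plasma cell differentiation (ENSMUSG00000038151, chromosome 10, 44313173 to 44404497, - strand), had FPKM of 5.41 (lowest), 7.23 (median) and 8.17 (highest) in OS. In MN it had 3.60, 3.52, 4.44, 3.72 and 3.02. The lowest OS library was OS 6, all OS libraries lay above all MN libraries, and the log2 difference was -0.78 ± 0.11 (adjusted p = 0.00540), held in all 24 alternatives. Irf4, a partner of that program also induced by antigen receptor signalling, had 22.8 (lowest), 34.1 (median) and 39.1 (highest) in OS and 18.5, 15.5, 17.2, 17.9 and 18.6 in MN (log2 difference -0.80 ± 0.14, adjusted p = 0.0151), a call that ended without MN 2 (adjusted p = 0.0523). In the opposite direction Mzb1, a chaperone that helps assemble immunoglobulins in marginal zone B cells and plasma cells, had 4.45 (lowest), 8.12 (median) and 10 (highest) in OS and 15.7, 18.9, 16.8, 26.6 and 15.1 in MN. The codes did not overlap, and it rose by 1.25 ± 0.21 (adjusted p = 0.0126). The list thus held members that moved in both directions. The heavy chain gene Ighm had 3585 ± 678 and 3259 ± 147 FPKM and did not pass (adjusted p = 0.728).

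Some glucocorticoid response, clock and sterol genes also differed. Of 13 glucocorticoid response genes, Dusp1, Errfi1 and Pdk4 fell, Zbtb16 rose and 9 did not pass, where 1.53% of all genes fell and 1.68% rose. The median was -0.73. Pdk4, which restrains glucose oxidation, fell by 0.73 ± 0.15 (adjusted p = 0.0240). Zbtb16, a zinc-finger transcription factor, had 0.468 (lowest), 0.817 (median) and 1.11 (highest) in OS and 1.43, 1.22, 4.23, 2.97 and 2.37 in MN and rose by 0.86 ± 0.20 (adjusted p = 0.0430). Of the 13 members, 10 lay below 0, and 3 lay above it, namely Zbtb16, Fkbp5 and Ddit4. All 13 had an unadjusted limma p under 0.05, against 20.4% of all genes. Members that did not pass lay on either side of 0. Fkbp5, a chaperone partner of the glucocorticoid receptor, had a log2 difference of 0.81 ± 0.23, the mTORC1 inhibitor Ddit4 one of 0.91 ± 0.27, and the metallothionein Mt1 one of -1.27 ± 0.32 (adjusted p = 0.0789, 0.0916 and 0.0558). For Mt1, OS 5 at 31.5 FPKM lay within the MN range. The call of Pdk4 ended without MN 1, MN 4 or MN 5 (adjusted p up to 0.0680), and that of Zbtb16 in 8 of 11 fits without 1 library (adjusted p up to 0.101). Of 17 core clock genes, the repressors Bhlhe40 and Nfil3 fell, by 1.24 ± 0.23 and 1.48 ± 0.31 (adjusted p = 0.0177 and 0.0283), and 15 did not pass. Per1 was among the latter, with a difference of -0.99 ± 0.32 (adjusted p = 0.110), and the median was 0.09. The call of Bhlhe40 ended without MN 2 or MN 5, and that of Nfil3 in 6 of 11 fits without 1 library (adjusted p up to 0.0792).

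Of 14 genes of sterol synthesis and uptake, 2 fell, 0 rose and 12 did not pass, where 1.53% of all genes fell. In this list 12 lay below 0, and the median was -0.38. Msmo1, a methylsterol oxidase, had 3.82 (lowest), 5.14 (median) and 6.37 (highest) in OS and 3.22, 3.31, 3.01, 2.95 and 2.94 in MN without overlap and fell by 0.57 ± 0.10 (adjusted p = 0.0154), a call that no single omitted library ended. The replicate number as a block did end it (limma adjusted p = 0.0909). Cyp51, the lanosterol demethylase, fell by 0.43 ± 0.10 (adjusted p = 0.0415) and its call ended in 8 of 11 fits without 1 library (adjusted p up to 0.104). Hmgcs1, an earlier enzyme of the pathway, did not overlap between codes but missed the threshold (log2 difference -0.45 ± 0.12, adjusted p = 0.0556).

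Lists close to the allergen model gave few calls. Of 10 mast cell and basophil genes, Hdc, the enzyme that makes histamine, fell and 9 did not pass. Hdc had 5.15 (lowest), 7.53 (median) and 12.8 (highest) in OS and 3.19, 2.58, 3.51, 6.09 and 0.967 in MN (log2 difference -1.20 ± 0.29, adjusted p = 0.0441), and its call ended in 9 of 11 fits without 1 library (adjusted p up to 0.112). Mcpt8, a basophil protease, had 6.41 ± 3.242 and 3.53 ± 2.42 FPKM and did not pass (adjusted p = 0.299). Of 10 type 2 response genes limma called 0, with 1 at an unadjusted p under 0.05 and a median of 0.10, which was 0.15 without OS 4, 0.05 without OS 5 and 0.04 without OS 6. Stat6, which transmits the interleukin-4 signal, had a log2 difference of 0.14 ± 0.11, and Ccl17, a chemokine for type 2 helper cells, one of 0.73 ± 0.22 (adjusted p = 0.512 and 0.0893). Of 18 unfolded protein response genes, Herpud1, a part of the degradation machinery of the endoplasmic reticulum, had a log2 difference of -0.78 ± 0.15 (adjusted p = 0.0230), and this fall lost its call without any 1 MN library (adjusted p up to 0.0664). The fit over 26 libraries ended the call of Herpud1 as well (limma adjusted p = 0.0736).

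Heat-shock genes had wide differences and no call. Hspa1b, an inducible HSP70, had 5.52 (lowest), 115 (median) and 424 (highest) in OS and 17.6, 5.19, 5.42, 19.6 and 2.00 in MN, with OS 5 inside the MN range (log2 difference -3.36 ± 0.91, adjusted p = 0.0661). Its near-identical neighbour Hspa1a, with which reads may be shared, had a difference of -3.26 ± 0.88 (adjusted p = 0.0652). Limma called 0 of the 12 tested, 3 had an unadjusted p under 0.05, and their median was -0.34, or -0.20 without OS 3. Without OS 5 both HSP70 genes passed.

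A few further falls were picked after their values were seen. Arrdc3, an arrestin-related adaptor of receptor trafficking (ENSMUSG00000074794, chromosome 13, 81031503 to 81044161, + strand), had 23.5 (lowest), 25.7 (median) and 31.1 (highest) in OS and 14.5, 12.7, 13.1, 12.5 and 13.2 in MN. OS 5 at 24.5 lay among the other OS libraries, the log2 difference was -0.95 ± 0.09, and the adjusted p of 0.00183 was the smallest of any gene, shared with Rpl14-ps1 and Rpl34-ps1. Fermt2, an integrin activator, had 9.38 (lowest), 9.93 (median) and 12.02 (highest) in OS and 6.10, 5.49, 6.13, 6.03 and 6.08 in MN (log2 difference -0.70 ± 0.08, adjusted p = 0.00495). Plk2, a polo-like kinase, fell by 1.21 ± 0.18 (adjusted p = 0.00688), and these 3 calls held in all 24 alternatives. Cxcr4, the receptor that retains cells in bone marrow and guides B cells, had 203 ± 31.5 and 124 ± 17.9 FPKM (log2 difference -0.70 ± 0.14, adjusted p = 0.0224). Its call ended without MN 2, MN 3 or MN 5 (adjusted p up to 0.0700) and with the replicate number as a block (limma adjusted p = 0.141). The activation marker Cd69, the ligand Cd274 (PD-L1) and Adm, a vasodilator peptide, fell by 0.97, 0.96 and 1.15 on the log2 scale, and each of these 3 calls ended without any 1 MN library, those of Cd69 and Cd274 also without OS 2 or OS 3 (adjusted p up to 0.110 for Cd69).

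**Figure D3:**
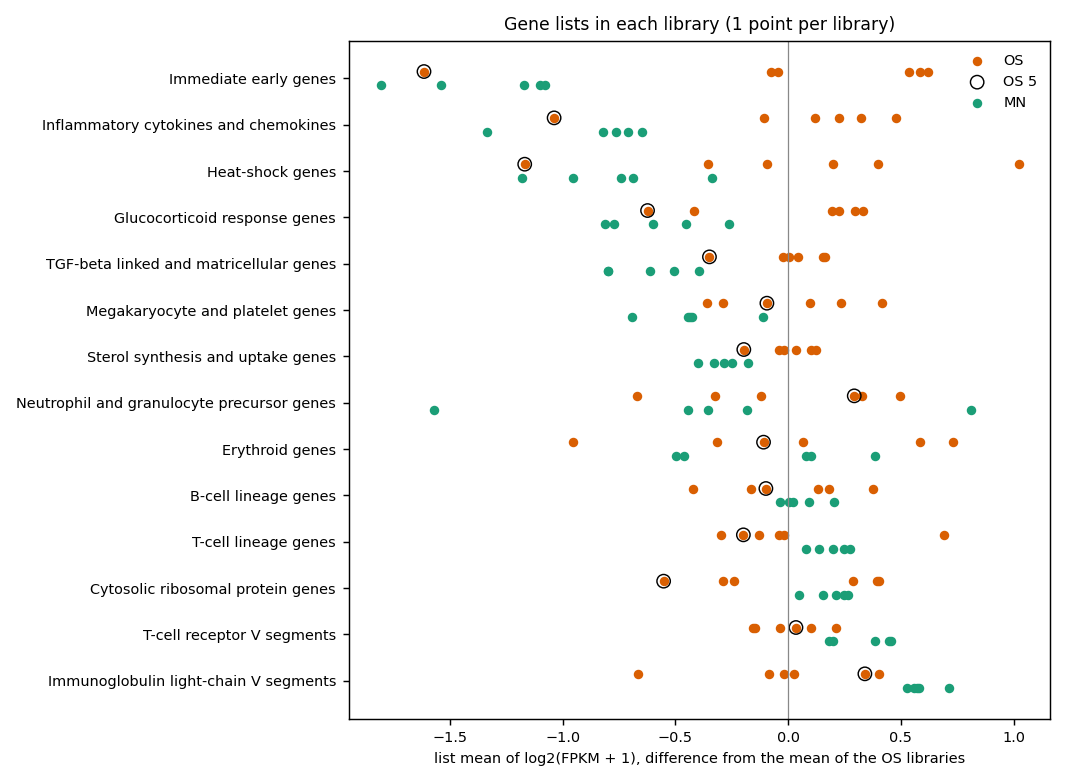
Mean of log2(FPKM + 1) over the tested members of each of 14 gene lists, as the difference from the mean of the OS libraries (x axis), 1 point per library, with OS in orange, MN in green and OS 5 ringed. OS 5 at -1.62 lies among the MN libraries for immediate early genes, all OS libraries lie right of all MN libraries for the TGF-beta linked list, and all MN libraries lie right of all OS libraries for light-chain V segments.

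The rises came from genes of varied roles. Tomm7, a subunit of the translocase that imports proteins into mitochondria (ENSMUSG00000028998, chromosome 5, 24043942 to 24049159, - strand), had FPKM of 10.4 (lowest), 18.2 (median) and 33.8 (highest) in OS and 44.5, 50.0, 43.9, 47.5 and 36.2 in MN. All MN libraries lay above all OS libraries, with a log2 difference of 1.26 ± 0.26 (adjusted p = 0.0258). Ndufs6, a subunit of respiratory complex I, had 12.3 (lowest), 18.0 (median) and 28.0 (highest) in OS and 38.7, 41.8, 38.0, 34.8 and 33.4 in MN (1.01 ± 0.19, adjusted p = 0.0196), and Snrpf, a core spliceosome protein, rose by 0.97 ± 0.16 (adjusted p = 0.0121). Ndufs6 was the 1 of 79 nuclear oxidative phosphorylation genes to pass, and their median was 0.16, or 0.07 without OS 5 and 0.28 without OS 3. The call of Tomm7 ended without any 1 MN library and that of Ndufs6 without MN 1, MN 2 or MN 3 (adjusted p up to 0.0763 and 0.0620), while no single omitted library ended that of Snrpf, which was lost in the fit over 26 libraries (adjusted p = 0.0714).

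Beside pseudogenes and a receptor segment, the named rises that held in all 24 alternatives were Prr33, Slc39a7, Chad, Kbtbd11 and Tmppe. Prr33, a proline-rich protein, had 1.92 (lowest), 2.87 (median) and 4.66 (highest) in OS and 6.60, 7.42, 7.62, 8.53 and 8.88 in MN (log2 difference 1.17 ± 0.16, adjusted p = 0.00540). Kbtbd11, a Kelch and BTB domain protein (ENSMUSG00000055675, chromosome 8, 15061025 to 15083333, + strand), had 7.33 (lowest), 9.87 (median) and 11.99 (highest) in OS and 18.6, 20.5, 23.2, 21.1 and 19.4 in MN. For both genes the groups were separate, and Kbtbd11 rose by 1.01 ± 0.12 (adjusted p = 0.00540). Slc39a7, a zinc transporter of the endoplasmic reticulum, had 0.537 (lowest), 1.28 (median) and 1.68 (highest) in OS and 3.63, 3.56, 4.32, 3.26 and 2.77 in MN (1.09 ± 0.16, adjusted p = 0.00688). Chad, the matrix protein chondroadherin, and Tmppe, a transmembrane phosphoesterase gene that lies within Glb1 on the same strand, rose by 1.06 and 1.00. Clec2d, a ligand of an inhibitory NK cell receptor, had 45.1 ± 12.4 and 86.5 ± 6.14 FPKM (0.97 ± 0.18, adjusted p = 0.0182), and Apoc1, an apolipoprotein of macrophages and liver, rose by 1.10 ± 0.22 (adjusted p = 0.0230). The call of Clec2d ended without MN 2 or MN 3, and that of Apoc1 without MN 1, MN 2, MN 3 or MN 5 (adjusted p up to 0.0589 and 0.0619). Clec2d also lost its call in the fit over 26 libraries (limma adjusted p = 0.262).

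Entries for microRNA precursors were among the rises with the largest fitted differences, at low values. Mir301 had 0 FPKM in OS 1, 2, 3 and 5, 0.768 in OS 4 and 0.766 in OS 6, and 2.70, 6.07, 1.90, 1.27 and 2.71 in MN. On genes as short as these, a single read is worth most of an FPKM or more, so the difference rests on few reads. Mir5120, Mir8103 and Mir7059 rose by 1.50, 1.19 and 1.13. The 4 entries lie on the same strand inside Ska2 (Mir301), Pax5 (Mir5120), Osbpl7 (Mir8103) and Cln3 (Mir7059), and reads of host and precursor cannot be told apart in poly(A) libraries. The calls of Mir5120, Mir8103 and Mir7059 ended in voom on recovered reads, in the fit over 26 libraries and in 8, 7 and 4 of 11 fits without 1 library. That of Mir301 ended with the replicate number as a block (limma adjusted p = 0.0581).

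**Figure D4:**
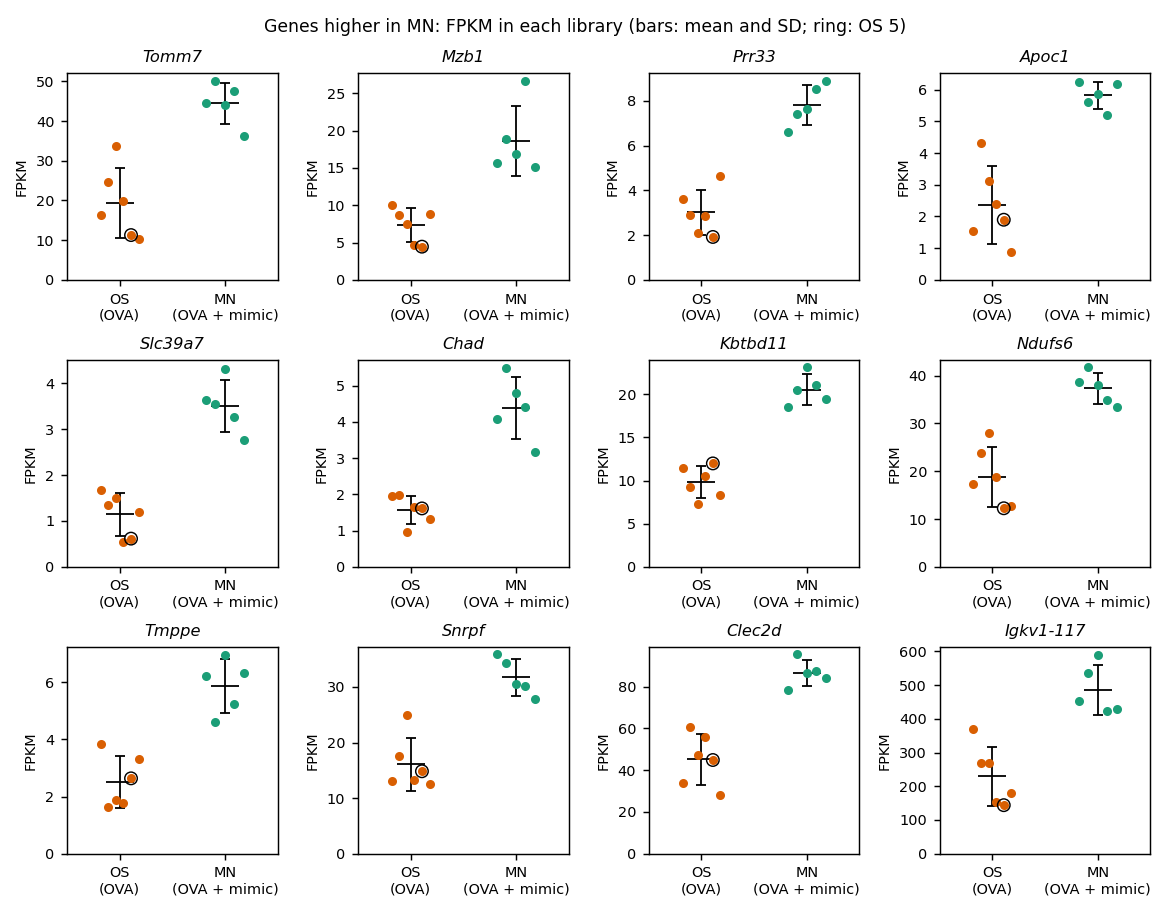
FPKM (y axis, each from 0) of 12 genes that rose, 1 point per library, with OS in orange, MN in green, the mean and SD as black bars, and OS 5 ringed. In each panel all 5 MN points lie above all 6 OS points, as for Tomm7, whose lowest MN library is at 36.2 and highest OS library at 33.8.

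Some antigen receptor segments rose, and most did not pass. Of 221 immunoglobulin segments tested 13 rose and 0 fell, and of 130 T-cell receptor segments 12 rose and 0 fell, against 1.68% of all genes higher, and their median log2 differences were 0.59 and 0.40. Among 109 light-chain V segments, 8 rose, 101 did not pass, and 102 lay above 0, with a median of 0.61. The list means of all 5 MN libraries, 0.52 to 0.71 from the OS mean, lay above those of all 6 OS libraries, -0.67 to 0.40, with OS 4 the lowest. Igkv1-117 had 144 (lowest), 223 (median) and 369 (highest) in OS and 452, 535, 591, 425 and 428 in MN (log2 difference 1.15 ± 0.24, adjusted p = 0.0271). Igkv4-68 rose by 1.40 ± 0.30 (adjusted p = 0.0292), and of 78 heavy-chain V segments Ighv10-3 and Ighv13-2 rose, by 1.37 and 1.18. The list mean of the heavy-chain V segments was 0.88 in OS 5, above every MN library (0.39 to 0.72), and 9 of the 78 lay below 0. Of 47 T-cell receptor V segments 6 rose, among them Trbv13-3 by 0.98 ± 0.17 (adjusted p = 0.0154), which held in all 24 alternatives, and its neighbour Trbv13-1 by 0.91. The calls of Igkv1-117, Igkv4-68, Ighv10-3, Ighv13-2 and Trbv13-1 ended in 6, 4, 7, 9 and 7 of 11 fits without 1 library. Segments share much sequence, so that reads may be divided between them in ways the table does not show. None of the 13 immunoglobulin constant region genes was called by limma, with 2 at an unadjusted p under 0.05 and a median of 0.07, which ran from -0.04 to 0.27 when each library was left out and moved over 1.5 times in all but the fits without OS 1 or OS 3.

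Lists of lymphocyte lineages and their functions gave few calls. Limma called 0 of 14 B-cell lineage genes (0 at an unadjusted p under 0.05, median 0.03, or -0.07 to 0.13 when each library was left out, and below 0 without OS 3, OS 6 or MN 1), and 0 of 18 T-cell lineage genes (5 at an unadjusted p under 0.05, median 0.21, or 0.36 without OS 4 and 0.14 without OS 6), where the list means of all MN libraries lay above those of 5 of 6 OS libraries. Cd4 had 0.40 ± 0.14 (adjusted p = 0.128). It also called 0 of 14 cytotoxic and NK cell genes (2 at an unadjusted p under 0.05), where the protease Gzma had 0.40 ± 0.14 (adjusted p = 0.133). Of 15 type 1 and interferon-gamma genes and of 11 genes of MHC class II presentation, Ciita, the master regulator of class II genes, was the 1 to rise, by 0.49 ± 0.12 (adjusted p = 0.0445), a call that ended in 8 of 11 fits without 1 library (adjusted p up to 0.120). Psmb8, a subunit of the immunoproteasome, rose by 0.77 ± 0.15 (adjusted p = 0.0210), the 1 of 37 proteasome genes to pass, until any 1 MN library was left out (adjusted p up to 0.0616). Of 20 type I interferon response genes limma called 0, with 3 at an unadjusted p under 0.05, and Rtp4 had 0.55 ± 0.14 (adjusted p = 0.0528).

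Neutrophil, erythroid and eosinophil markers varied widely between libraries of 1 code. Limma called 0 of 20 neutrophil genes, with 2 at an unadjusted p under 0.05 and a median of -0.34, which was -0.51 without OS 1, -0.67 without MN 4 and -0.01 without MN 5, and the list means ran from -1.57 in MN 5 to 0.81 in MN 4. S100a9, a calcium-binding protein of neutrophils, had 2049 ± 794 and 1779.6 ± 1039 FPKM, with all 6 OS libraries within the MN range, and S100a8 had 1237 ± 528 and 1166 ± 728. Of 23 erythroid genes limma called 0, with 0 at an unadjusted p under 0.05, and their median was -0.15, or -0.38 to -0.01 when each library was left out, moving over 1.5 times in all but the fits without OS 5, MN 1 or MN 2. The anhydrase Car2 had 709 ± 274 FPKM in OS and 474 ± 127 in MN. Of 28 proliferation genes 27 lay below 0, limma called 0, and 3 had an unadjusted p under 0.05, with Mki67 at -0.52 ± 0.26. C1qa stood at 0.75 ± 0.24 (adjusted p = 0.111) among 16 genes of red pulp macrophages and iron, of which limma called 0 (5 at an unadjusted p under 0.05). The eosinophil granule gene Prg2 ran from 4.56 to 565 FPKM within OS and from 54.6 to 496 within MN, so that no difference was detectable against that spread (adjusted p = 0.492).

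Ribosomal genes gave mixed calls. Of 85 genes of cytosolic ribosomal proteins, Rpl32 and Rpl35a rose, by 0.69 ± 0.14 and 0.78 ± 0.17 (adjusted p = 0.0268 and 0.0339), 83 did not pass, and the median was 0.15, or 0.03 without OS 5, 0.24 without OS 2 or OS 4 and 0.27 without OS 3. These calls ended in 6 and 7 of 11 fits without 1 library (adjusted p up to 0.0805 and 0.0872). Rps29 had 180.1 (lowest), 526.3 (median) and 957 (highest) in OS and 1323, 1286, 1408, 1220.5 and 1277 in MN, without overlap, and missed the threshold (1.45 ± 0.36, adjusted p = 0.0523). It passed in 13 of the 24 alternatives, voom and the fit over 26 libraries among them. Of 108 ribosomal protein pseudogenes 10 rose and 5 fell, where 1.68% of all genes rose and 1.53% fell. Rps12-ps3 had 757 (lowest), 1136 (median) and 1249 (highest) in OS and 467, 496, 434, 388 and 341 in MN, Rps12-ps1 had a difference of -1.30 ± 0.16 and Rps12-ps10 one of -2.50 ± 0.34, both falls, and the parent Rps12 had -0.62 ± 0.16 (adjusted p = 0.0582). Rpl34-ps1 had 27.7 (lowest), 36.1 (median) and 56.9 (highest) in OS and 138, 134, 159, 146 and 108 in MN, Rpl36a-ps1 and Rpl14-ps1 rose by 1.39 and 0.99, while the parents Rpl34 and Rpl14 had 0.20 ± 0.20 and 0.31 ± 0.10 and did not pass. These 6 pseudogene calls held in all 24 alternatives, but copies this alike share reads, and how the authors' counting divided them is uncertain. Of 15 mitochondrially encoded genes, mt-Nd3 rose by 0.68 ± 0.12 (adjusted p = 0.0161) and 14 did not pass. The abundant mt-Co1 lay lower in MN without overlap (-0.55 ± 0.17, adjusted p = 0.0898). The call of mt-Nd3 ended without MN 3 (adjusted p = 0.0504) and in voom. It also ended with the replicate number as a block and in the fit over 26 libraries (limma adjusted p = 0.0579 and 0.155).

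The other codes of the series bear on how far these differences follow the treatment. The second OVA code, ON, had the same stated treatment as OS, and MM the same as MN. Of the 239 genes that fell, the ON median lay nearer to MN than to OS for 167 (69.9%), and the MM median nearer to MN for 109 (45.6%), against 50.7% and 49.4% of all genes tested. The saline median lay nearer to MN for 227, against 67.7% of all genes. Of the 263 that rose, the shares were 50.6% for ON, 33.5% for MM and 90.1% for saline. Ccn1 had a mean FPKM of 8.59 ± 11.4 in ON and 116 ± 75.2 in MM, Dusp1 46.9 ± 38.1 and 127 ± 41.7, and Ctla4 4.53 ± 3.37 and 12.9 ± 5.93. For these genes the mean of the OVA code ON was thus nearer to MN, and that of the mimic code MM nearer to OS. Irf4 had 18.1 ± 2.41 in ON and 18.4 ± 3.26 in MM, both near the MN mean of 17.6 and under the OS mean of 31.7. Thbs1 had 41.2 ± 11.3 and 32.7 ± 11.3, Tomm7 15.6 ± 6.38 and 22.2 ± 12.3, and Kbtbd11 16.3 ± 5.00 and 14.97 ± 2.56. Within this comparison each treatment is held by 1 code, so the mimic and whatever the codes stand for cannot be told apart.

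**Figure D5:**
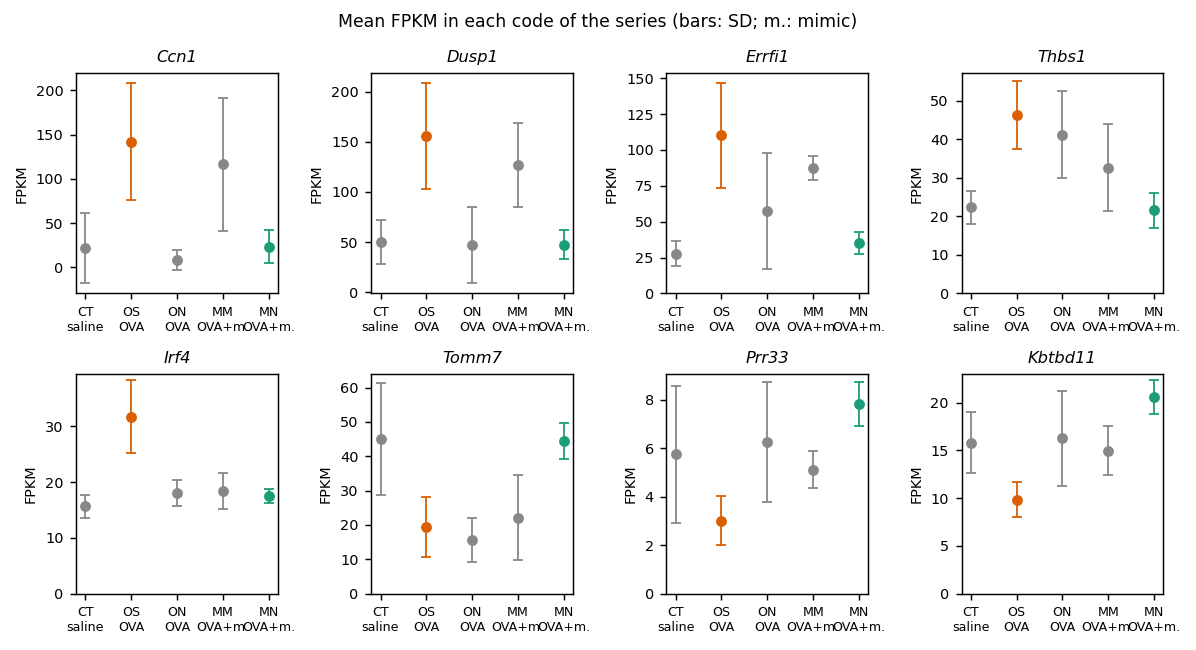
Mean FPKM (y axis) with SD of 8 genes in the 5 codes of the series, CT for saline, OS and ON for OVA, MM and MN for OVA with the mimic, with n = 6 for OS and 5 for each other code. For Ccn1 and Dusp1 the means of OS and MM lie together above those of CT, ON and MN, while for Irf4 only OS is high among the means of the 5 codes.

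Genes with a seed site for the mimic were counted next. A match to CAGGACG, the complement of the seed, was found in the 3′ untranslated region of 364 of 11873 protein-coding genes with an annotated region (GRCm38). Of these 5 rose (1.37%) and 5 fell (1.37%), against 134 (1.16%) and 164 (1.42%) of the 11509 genes without a match. The median log2 difference was -0.01 in both sets. Genes with a match had longer regions, with a median of 2207.5 bases against 1115 without. In short, middle and long regions, 0 of 32, 3 of 111 (2.70%) and 2 of 221 (0.905%) genes with a match fell. Without a match 0.611%, 1.72% and 1.98% fell. In 74 genes the match was followed by an A, a form known to be more effective, and of these 2 rose and 0 fell, with a median of 0.04. The sites of 4 called genes are printed to show the match, in capitals, within 25 bases of the messenger.
Dusp5: gagcttcgctggacCAGGACGggag
Tnfaip3: agctcagggaaaaaCAGGACGtagg
Tifab: tccctctggaaagcCAGGACGatga
LTO1: agggcccagcatgaCAGGACGatcg
Dusp5 and Tnfaip3 fell, as given above. Tifab and LTO1, named here because theirs are the sites followed by A, rose by 0.60 ± 0.10 and 0.52 ± 0.07 (adjusted p = 0.0126 and 0.00540), and the call of Tifab ended in the fit over 26 libraries (adjusted p = 0.160). A match is a description and not a bound site. Of 13 genes of microRNA processing and silencing limma called 0, with 1 at an unadjusted p under 0.05, and the Argonaute gene Ago2 had 30.2 ± 10.9 and 24.9 ± 4.39 FPKM.

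The promoters of the genes that fell were read for motifs of inducible factors, on both strands of the 300-base windows around RefSeq starts (GRCm38.p6). The CArG box, bound by serum response factor, was in 7 of the 165 windows (4.24%) of genes that fell, 0 of 127 of genes that rose and 162 of all 11975 (1.35%). The cyclic AMP response element TGACGTCA was in 3.64% of windows of genes that fell and 2.85% of all, the AP-1 site TGANTCA in 6.67% and 5.21%, the NF-kappaB motif in 9.09% and 5.26%, and TATAAA in 13.3% and 7.39%. In the windows of genes that rose the first 3 shares were 1.57%, 7.09% and 4.72%, and 14 of 127 windows held TATAAA. Of 30 windows of immediate early genes, 6 held a CArG box, 6 the NF-kappaB motif, 4 TATAAA, 3 the cyclic AMP element and 0 the AP-1 site. The motifs may overlap, and no match says only that these letters are absent from the window. The windows of Dusp5, with a pair of adjacent CArG boxes (chromosome 19, 53528895 to 53529194, + strand), of Errfi1, with TGACGTCA and TATAAA (chromosome 4, 150854820 to 150855119, + strand), and of Dusp1, with TGACGTCA (chromosome 17, 26508423 to 26508722, − strand), are printed as examples from genes that fell, with these motifs in capitals.
Dusp5: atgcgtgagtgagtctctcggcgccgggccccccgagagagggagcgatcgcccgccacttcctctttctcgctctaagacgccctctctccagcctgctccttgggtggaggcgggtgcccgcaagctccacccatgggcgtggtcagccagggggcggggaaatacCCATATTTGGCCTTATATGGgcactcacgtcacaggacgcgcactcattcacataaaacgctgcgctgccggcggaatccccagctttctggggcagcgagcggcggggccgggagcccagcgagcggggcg
Errfi1: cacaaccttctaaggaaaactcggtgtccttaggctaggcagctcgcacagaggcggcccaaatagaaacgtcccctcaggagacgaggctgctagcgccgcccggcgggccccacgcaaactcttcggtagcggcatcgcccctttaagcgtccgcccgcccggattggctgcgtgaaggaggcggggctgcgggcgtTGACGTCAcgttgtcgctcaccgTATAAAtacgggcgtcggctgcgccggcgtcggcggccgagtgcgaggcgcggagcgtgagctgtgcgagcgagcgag
Dusp1: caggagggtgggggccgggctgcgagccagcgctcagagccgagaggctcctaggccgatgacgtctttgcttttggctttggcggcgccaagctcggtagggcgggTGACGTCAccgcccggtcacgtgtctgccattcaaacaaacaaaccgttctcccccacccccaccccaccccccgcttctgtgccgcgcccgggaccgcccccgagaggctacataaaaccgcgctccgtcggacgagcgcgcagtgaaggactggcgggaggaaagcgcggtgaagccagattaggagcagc
Errfi1 has a second RefSeq start whose window held no CArG box, TGACGTCA, AP-1 site or TATAAA. The NF-kappaB motif was not marked in the printed windows.

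Over gene classes, 142 of 11969 protein-coding genes rose and 171 fell, 44 of 1076 pseudogenes rose and 32 fell, and 26 of 948 long noncoding RNA genes rose and 8 fell. The shares called in either direction were 2.62%, 7.06% and 3.59%, against 3.20% of all genes. Protein-coding genes that rose had a median length of 3377 bases and those that fell 4903, against 4372 for all tested. FPKM is scaled by length, and the part of length in these calls was not tested. Of the 124 genes looked at singly, 49 overlap another annotated gene, among them Dusp1, Ctla4, Fermt2, Slc39a7 and Mzb1, and their values are uncertain where counting did not use strand.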

How the data were processed

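Poly(A)-selected RNA of mouse spleen was sequenced in 26 libraries, of which the 6 coded OS and the 5 coded MN were compared. The authors deposited 1 table, which holds FPKM and a gene length for 56392 genes. The submitters' processing notes list edgeR 3.24.3, featureCounts 1.5.0-p3, HISAT2 2.0.5, CASAVA, DESeq2 1.20.0 and StringTie 1.3.3b without saying what each did, and the table has a build not given in the sources used here. In each library FPKM multiplied by gene length gave whole multiples of 1 step (100% of values, tolerance 0.05), from which reads were recovered. The values are FPKM and not counts, so limma 3.58.1 (R 4.3.3) was fitted to log2(FPKM + 1) with 1 mean per code and a variance trend, for genes that reached an FPKM of 1 in 5 or more of the 26 libraries. A fold change on this scale understates the change of low genes. P-values were adjusted by Benjamini-Hochberg over 15672 genes, with a threshold of 0.05, and the fit was tested on simulated data. There, among better expressed genes, it called 44.8% of 1.5-fold, 80.6% of 2-fold and 97.0% of 4-fold changes, with 11 false calls. The simulated noise was drawn for each gene separately, without shifts shared by the genes of a library, so these shares may not hold for the data. Genes that did not pass may include modest differences. Where libraries of 1 code spread widely, they also include large ones, such as Hspa1b (log2 difference -3.36) and Fos (-2.45).

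Named genes were, in each direction, the 15 with the largest log2 difference among those that passed whose mean FPKM in the higher code reached 1, leaving out predicted genes, clones, receptor segments and pseudogenes, and up to 6 passing and 7 other members of each of 47 gene lists by p or FPKM. Pseudogenes and their parents, Arrdc3, Fermt2, Plk2, Cxcr4, Cd69, Cd274, Adm, Tifab and LTO1 fall outside this rule and were chosen after their values were seen. Of the listed symbols 1 was not found. The members and lists were chosen with earlier results of these data known, so lists are described by counts and medians with no test. The labels do not say whether replicate numbers pair samples, and the main fit did not use them. Alternatives were 26-library, pseudocount, filter, scaling, weighting, voom, block and leave-one-out fits. Seed sites were read in GENCODE M21 transcripts and promoters in RefSeq tables. A few genes are not reported here.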

Additional observations from a re-analysis of the deposited data

Results flagged for a closer look

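Values in 1 library lay far from the others of its code by Dixon's criterion in 23 of 342 groups of values. For independent, normally distributed values chance alone gives about 1 in 20. FPKM need not be so distributed and lists share members, so the 23 cannot be judged against that rate. Within OS, Spry4 was low in OS 5 (2.96 FPKM), Rps12-ps3 low in OS 1 (757), LTO1 low in OS 2 (2.35), Fkbp5 low in OS 6 (4.09), Cyp51 high in OS 4 (9.80), Ighv13-2 high in OS 6 (6.79) and Mir7059 high in OS 2 (0.989, the others at 0). Of the list means, on the log2 scale from the OS mean, OS 5 was low for immediate early genes (-1.62) and TGF-beta linked genes (-0.35), and OS 4 was high for T-cell lineage genes (0.69) and type 1 genes (0.29). Within MN, Tnfaip3 (12.8) and Fermt2 (5.49) were low in MN 2, Rps12-ps1 (0.136) low in MN 3, Herpud1 (55.9) low in MN 5, Cd79a (396) high in MN 1, Ddit4 (242) high in MN 3 and Tifab (17.2) high in MN 4. MN 2 was low for inflammatory genes (-1.33), MN 5 low for type 2 genes (0.0091), MN 3 high for light-chain V segments (0.71), MN 1 high for pancreatic genes (0.76) and MN 4 high for small nucleolar RNA entries (0.25).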

How the results depend on the processing

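Against 502 called genes (263 higher, 239 lower), a table with no filter called 254 (135 and 119), library weights 1287 (654 and 633), and the fit with the replicate number as a block 145 (63 and 82). Replicate number 6 exists in OS alone, so OS 6 added nothing to the difference fitted with the block. Leaving out OS 6 without a block called 294. The replicate numbers gave correlations of 0.03, 0.02, -0.09, 0.17 and 0.14 between same-numbered deviations. MN 4 and MN 5 correlated best with their own number and MN 1, 2 and 3 did not. The labels do not say whether the numbers pair samples, and these correlations cannot decide it. Leaving out each library in turn called 122 to 1076 genes, 56 to 536 higher and 62 to 540 lower. Chosen after seeing the data, weights by code called 770 (410 and 360), leaving out OS 4 and OS 5 together 1087 (556 and 531), a 2-fold difference beside the threshold 125 (60 and 65), protein-coding genes alone 343 (158 and 185), and scaling to recovered read totals 575. Of the 502 genes, 318 were also called by the fit over 26 libraries, which called 453, and 497 without OS 5. Of 76 named genes that passed, 23 kept their call in all 24 alternatives, 33 lost it in the block (Snrpf and LTO1 among them), 16 in the fit over 26 libraries and 47 without at least 1 library, and none changed sign. Those lost in the fit over 26 libraries included Herpud1, Pdk4, Psmb8, Rpl35a and Ciita. Some named genes that did not pass gained a call in alternatives, as Rps29 did in 13 of 24, Jun in 10 and Rel in 8. S100a8 and S100a9, which did not pass, ranged from -0.53 to 0.20 and from -0.64 to 0.065 when each library was left out, above 0 without MN 5. Of 47 list medians, 33 moved over 1.5 times and 11 changed sign without at least 1 library. Under other settings, by more than the spread between libraries, that of T-cell receptor V segments moved to 0.59 at a pseudocount of 0.1 and 0.60 with voom, and that of the 2 pancreatic genes tested moved to 0.52 with voom. The cause of these shifts was not tested. Depth limits low genes, since 1 read on 1 kilobase is an FPKM of 0.0544 to 0.0728.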
